A study of Mus musculus with 12 samples.

Results

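The members are 48 mouse genes of DNA replication and mitosis: the loading and firing of replication origins, DNA and nucleotide synthesis, the E2F and Foxm1 transcription factors, the cyclins, and the kinases, motor proteins and ubiquitin ligase factors of cell division. They were taken from the series by gene name through the array annotation, as E2F-driven replication genes and mitotic genes. The rule itself uses no measured value, but the members were chosen with earlier results of these data known. Of the 48, 47 had a probe set annotated to them alone and 46 reached the minimum signal of 50 in at least 1 condition and were tested, among 18194 genes named on the array and 12071 tested. Ccnb1 was not analysed here. Tyms, the gene of thymidylate synthase, had 4 probe sets that all stayed under 50 in every condition and was not tested. The study asked how the plant flavonoid luteolin shapes the transcriptome of resting and endotoxin-stimulated microglia, using BV-2, an immortalised murine microglial cell line that divides continuously in culture. Cells received 50 μM luteolin together with 50 ng/ml lipopolysaccharide (LPS, a bacterial cell wall component that activates microglia), 50 ng/ml LPS alone, 50 μM luteolin alone, or nothing (control), all for 24 h. Each condition has 3 arrays, numbered 1 to 3, and the study's methods describe 3 independent stimulation experiments. All 12 arrays are of 1 cell line. Luteolin was dissolved in DMSO, and whether the control cells received DMSO is not given in the sources used here.

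Before a cell divides it copies its DNA once. In G1 phase the loading factors Cdc6 and Cdt1 place the Mcm helicase on replication origins, and cyclin E with its kinase partner starts S phase, when the polymerases, their sliding clamp and the enzymes that make deoxynucleotides are needed. Mitosis follows, driven by cyclin B with Cdk1, and ends when the anaphase-promoting complex with Cdc20 marks cyclin B and other proteins for destruction. The genes of the first wave are typically controlled by E2F factors, and those of the second by the DREAM, B-Myb and Foxm1 complexes through a promoter element named CHR (cell cycle genes homology region), often together with CCAAT boxes bound by NF-Y. Activated macrophages are known to slow their division, and microglia are their relatives in the brain. For these BV-2 cultures the paper states, without showing the data, that proliferation and survival were unchanged by LPS or luteolin at the concentrations used.

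The promoter sequences of members from both waves are shown because they carry these elements and because the values are described by these 2 waves. Mcm6 and Mcm3 were chosen for the most E2F matches among the genes of origin loading and firing. Ccnb2 and Cdk1 were chosen for the most CHR matches among mitosis members. Ties were settled by gene name. They are therefore not typical members, and some windows of either wave held no such match. The sequences are from RefSeq on build GRCm38.p6 and run from 250 bases before to 50 bases after the annotated start. Both strands were searched for any of the E2F spellings TTCCCGC, or TTGGCGC, or TTCGCGC, or TTGCCGC, for the CHR letters TTTGAA, and for the CCAAT box. Matches on either strand are in capitals. Where E2F matches overlap, as in TTGGCGCGAA of Mcm6 and TTGGCGCCAA of Mcm3, the capitals run on. Each overlapping match is counted, so a count can exceed the number of separate places. Mcm6, a helicase subunit, lies on the minus strand at chr1:128359656-128359955, with 5 E2F matches, 0 CHR and 2 CCAAT. Mcm3, another helicase subunit, is at chr1:20820263-20820562 on the minus strand, with 3 E2F, 0 CHR and 3 CCAAT matches. Ccnb2, the gene of cyclin B2, is at chr9:70421505-70421804 on the minus strand, with 0 E2F, 2 CHR and 3 CCAAT matches. Cdk1, its kinase partner, is at chr10:69352863-69353162 on the minus strand and holds both kinds, 2 E2F and 2 CHR, with 3 CCAAT matches. Cenpa, the gene of the centromeric histone and the member that passed the test with LPS, was added after its values were seen and is at chr5:30666636-30666935 on the plus strand, with 0 E2F, 1 CHR and 2 CCAAT matches.
Mcm6: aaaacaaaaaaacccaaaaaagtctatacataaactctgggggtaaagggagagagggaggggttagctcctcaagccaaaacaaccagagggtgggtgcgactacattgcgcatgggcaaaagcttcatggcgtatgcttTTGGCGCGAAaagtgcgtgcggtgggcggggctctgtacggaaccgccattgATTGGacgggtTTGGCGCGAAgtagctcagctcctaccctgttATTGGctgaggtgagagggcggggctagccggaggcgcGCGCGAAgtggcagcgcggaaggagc
Mcm3: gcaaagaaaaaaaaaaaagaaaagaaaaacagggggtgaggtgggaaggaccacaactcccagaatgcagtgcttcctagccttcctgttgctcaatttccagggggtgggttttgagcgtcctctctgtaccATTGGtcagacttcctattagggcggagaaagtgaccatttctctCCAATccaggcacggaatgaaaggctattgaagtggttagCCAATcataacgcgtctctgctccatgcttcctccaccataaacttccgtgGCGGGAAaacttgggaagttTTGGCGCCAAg
Ccnb2: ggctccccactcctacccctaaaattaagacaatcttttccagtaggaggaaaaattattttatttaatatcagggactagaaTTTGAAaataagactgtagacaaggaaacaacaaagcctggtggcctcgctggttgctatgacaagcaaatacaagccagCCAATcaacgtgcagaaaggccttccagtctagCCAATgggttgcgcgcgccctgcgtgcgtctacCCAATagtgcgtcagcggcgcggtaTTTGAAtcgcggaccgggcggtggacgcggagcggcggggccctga
Cdk1: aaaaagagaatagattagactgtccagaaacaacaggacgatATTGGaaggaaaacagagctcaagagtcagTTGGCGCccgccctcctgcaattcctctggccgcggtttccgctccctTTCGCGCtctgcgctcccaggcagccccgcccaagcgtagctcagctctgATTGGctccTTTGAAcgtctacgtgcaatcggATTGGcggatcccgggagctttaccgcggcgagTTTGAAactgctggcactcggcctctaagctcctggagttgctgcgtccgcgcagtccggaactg
Cenpa: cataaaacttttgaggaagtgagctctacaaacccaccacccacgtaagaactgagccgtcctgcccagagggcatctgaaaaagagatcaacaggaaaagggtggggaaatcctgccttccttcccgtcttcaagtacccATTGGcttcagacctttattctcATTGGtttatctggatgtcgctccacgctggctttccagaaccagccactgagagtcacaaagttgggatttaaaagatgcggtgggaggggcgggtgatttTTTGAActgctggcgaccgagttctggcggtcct

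Of the members, 37 had a promoter entry, with 40 windows. An E2F match was present in 66.7% of the 24 windows of replication members, in 12.5% of the 16 windows of mitosis members and in 9.57% of all 32851 windows. The CHR letters were in 16.7% of replication windows, 81.2% of mitosis windows and 17.9% of all windows. CCAAT was present in 70.8% of replication windows, 93.8% of mitosis windows and 37.4% of all. A match describes the letters in the window and no binding. The members were chosen as E2F-driven replication genes and mitotic genes. A high E2F share in replication windows and a high CHR share in mitosis windows can therefore follow from that choice alone. The shares describe the members and are no test of the split into replication and mitosis members. The 9 tested members without an entry were Kif20a, Gmnn, Aurkb, Pole, Ccna2, Ccne2, Foxm1, Mcm4 and Ccnd1.

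Across the series the median signal of an array was 52.2 to 56.4, 50.9 to 52.5% of the 45101 probe sets reached 50, and arrays of a condition correlated at 0.978 to 0.996 over all probe sets on the log2 scale. The microglia and macrophage genes Cd68, Csf1r and Tyrobp had mean signals of at least 6260.2 in every condition. The complement gene C1qa was under 50 throughout, and Cx3cr1, a chemokine receptor of brain microglia, was near 50. The rest of that list, Aif1, Itgam, Ptprc, Spi1, Trem2 and Fcgr3, reached 50 in at least 1 condition. Of the markers listed for other cell types, Snap25 and Stmn2 (neurons), Aqp4, Slc1a2 and Aldh1l1 (astrocytes), Mog (oligodendrocytes) and Col1a1, Col3a1 and Pdgfra (fibroblasts) stayed under 50. Of the same lists, Syt1 (neurons, 46.6 to 51.7) and Dcn (fibroblasts, 47.0 to 50.4) were near 50, Gfap (astrocytes), Mbp and Mag (oligodendrocytes) were at 60.1 to 90.6, and Rbfox3 (neurons) at 193 to 214 over the 4 condition means. The markers Kit, Cd34, Mpo and Elane of myeloid progenitors were under 50. Precision was limited by the 3 arrays per condition. Control replicate 1 stood apart from the other 2 controls for these genes. The medians over members or waves against control, Cenpa with LPS and the counts of called members are therefore also given without it. Most other values of single members, and the medians by role and by array, include it.

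Signals are linear array intensities and are given for replicates 1, 2 and 3 in that order, and differences are on the log2 scale. The loading factor Cdc6 had signals of 257, 982 and 1025 with luteolin + LPS, 424, 749.6 and 1286 with LPS, 265, 575 and 808 with luteolin and 409.9, 281 and 396 in control cells. With LPS all 3 arrays lay above every control array, and in each condition with a compound replicate 1 was the lowest. Its partner Cdt1 had 6714, 6602 and 5387 with luteolin + LPS, 7179, 6714 and 7414 with LPS, 8076, 7435 and 8108 with luteolin and 9367, 5981 and 6119 in control cells, and its range over the 12 arrays was narrower than that of Cdc6. Mcm10, which helps to activate loaded helicases, had 458, 767 and 766 with luteolin + LPS, 459, 579 and 861 with LPS, 362, 601 and 632 with luteolin and 581, 296 and 369 in control cells. Cdc45, part of the active helicase, had 518, 928 and 677 with luteolin + LPS, 598, 522 and 748 with LPS, 448, 503 and 558 with luteolin and 825, 246 and 331 in control cells, with the control arrays wider apart than those of any other condition. The helicase subunits Mcm3, Mcm4, Mcm5, Mcm6 and Mcm7 were all lowest in control replicate 2. Mcm3 had 1258, 3237 and 2239 with luteolin + LPS, 1853, 1445 and 1872 with LPS, 1316, 2146 and 2439.9 with luteolin and 2466, 886 and 1363 in control cells, so that luteolin + LPS replicate 2 was its highest array. The sixth subunit, Mcm2, had 792, 1681 and 1279.5 with luteolin + LPS, 1174, 1231 and 1558 with LPS, 894, 1316 and 1471 with luteolin and 1742, 1051 and 1313 in control cells, with luteolin + LPS replicate 1 lowest. Mcm6 had 3377, 4881 and 3586 with luteolin + LPS, 5082, 3794 and 4584 with LPS, 3022, 4272 and 5256 with luteolin and 7325, 2597 and 3296 in control cells, and its highest array was control replicate 1. Mcm4 ran from 1069 to 3385, Mcm5 from 1627 to 4283 and Mcm7 from 1957 to 5725, each with luteolin + LPS replicate 2 at the top. Gmnn, which holds Cdt1 in check, ran from 1141 in control replicate 2 to 1952 in luteolin + LPS replicate 2.

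Among the genes of DNA synthesis, Pcna, the sliding clamp, had signals of 10568, 16284 and 10579.8 with luteolin + LPS, 10571, 10009 and 11275 with LPS, 11002, 13677 and 14757 with luteolin and 12348, 8604 and 9051 in control cells. Pole, the catalytic subunit of polymerase epsilon, had 298, 476 and 403 with luteolin + LPS, 342, 526 and 585 with LPS, 269, 452 and 453 with luteolin and 693, 259.5 and 298 in control cells. Both were lowest in control replicate 2, and Pole was highest in control replicate 1. Prim1, of primase, ran from 779 in luteolin + LPS replicate 1 to 2287 in LPS replicate 3, and Rfc4, of the clamp loader, from 1181 in control replicate 2 to 2812 in control replicate 1. For nucleotide supply, Rrm2, the regulated subunit of ribonucleotide reductase, had 1128, 3933 and 3492 with luteolin + LPS, 914, 1869 and 3007 with LPS, 989, 2358 and 2719 with luteolin and 1671, 810.0 and 1120.4 in control cells. Replicates 2 and 3 of Rrm2 in each condition with a compound were above all control arrays, while replicate 1 lay within the control range. Rrm1, the large subunit of that enzyme, had 1679, 3329.8 and 2175 with luteolin + LPS, 2056, 1929 and 2603 with LPS, 1694, 2695 and 3007 with luteolin and 2678, 1259.7 and 1577 in control cells, with control replicate 2 lowest and luteolin + LPS replicate 2 highest. Tk1, thymidine kinase, had 838, 1355 and 1089 with luteolin + LPS, 1002, 809 and 1023 with LPS, 759, 1483 and 1587 with luteolin and 1806, 495 and 769.6 in control cells, and control replicate 1 exceeded control replicate 2 by the widest margin among the members of this wave.

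The transcription factor gene E2f2, an activator of S phase genes, had 471, 562 and 534 with luteolin + LPS, 329, 429 and 477 with LPS, 409, 501 and 513 with luteolin and 365, 299 and 342 in control cells. Its arrays with luteolin lay above every control array. E2f1, another activator of the family, had 576, 921 and 513 with luteolin + LPS, 623, 482 and 465 with LPS, 474, 541 and 618 with luteolin and 503, 339.6 and 390.3 in control cells, and control replicate 2 was its lowest array. E2f8, a repressor of E2F targets, ran from 144 in LPS replicate 1 to 473 in luteolin + LPS replicate 2. Uhrf1, which carries DNA methylation over to the new strand, had 595, 1631 and 1095 with luteolin + LPS, 959.5, 1115 and 1546 with LPS, 543, 982 and 1249.6 with luteolin and 1436, 566 and 758 in control cells, with wide overlap between conditions. Foxm1, which activates mitotic genes, had 253, 237 and 349.7 with luteolin + LPS, 195, 249 and 267 with LPS, 208, 336 and 273 with luteolin and 437, 198 and 237 in control cells, with every other array except LPS replicate 1 inside the control range. Ccne2, the gene of cyclin E2, had 53.4, 963 and 356 with luteolin + LPS, 77.1, 342 and 567 with LPS, 81.3, 376 and 444 with luteolin and 85.9, 128 and 169.5 in control cells. Replicate 1 of Ccne2 was the lowest array in all 4 conditions, by a wide margin, and Ccne2 had the widest spread of all members. Ccne1, of cyclin E1, had 183, 685 and 447 with luteolin + LPS, 321, 357 and 411 with LPS, 236, 425 and 382 with luteolin and 248, 256 and 279 in control cells, and its control arrays were close together. Ccnd1, of cyclin D1, which links growth signals to G1 progress, had 327, 602 and 789 with luteolin + LPS, 287, 608 and 485 with LPS, 276, 1337 and 918 with luteolin and 416, 891 and 735 in control cells, with replicate 1 again lowest in each condition. Chek1, the replication checkpoint kinase, had 234, 481 and 387 with luteolin + LPS, 401, 383 and 576 with LPS, 294, 383 and 445 with luteolin and 519, 239.9 and 323 in control cells, and all 4 conditions overlapped.

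Of the mitotic drivers, Ccna2, of cyclin A2, had signals of 1834, 2216 and 1701 with luteolin + LPS, 1219, 1268 and 1628 with LPS, 2154, 2438 and 2300.4 with luteolin and 4094, 1089.6 and 1331 in control cells. Ccnb2 had 1821, 1340.4 and 1345 with luteolin + LPS, 1074, 1149.7 and 1218 with LPS, 2182, 2199.8 and 2123 with luteolin and 3150.0, 1300.3 and 1694 in control cells. The LPS arrays of both genes lay below all luteolin + LPS arrays, and control replicate 1 was the highest of the 12 arrays. Cdk1 had 1227, 1802 and 1437 with luteolin + LPS, 835, 1143 and 1266 with LPS, 1351, 1837 and 1575 with luteolin and 2058, 923 and 1119 in control cells. Plk1, a kinase of mitotic entry and exit, had 661, 611 and 674 with luteolin + LPS, 416, 583 and 601 with LPS, 648, 994 and 805 with luteolin and 1321, 578 and 811 in control cells. Aurkb, the kinase of the chromosomal passenger complex, had 560.2, 951 and 927 with luteolin + LPS, 476, 700.3 and 845 with LPS, 586, 986 and 824 with luteolin and 1045, 466 and 656 in control cells. For both kinases LPS replicate 1 was at or near the bottom and control replicate 1 at the top. Aurka, the kinase of the spindle poles, ran from 1109 in LPS replicate 1 to 2619.9 in luteolin replicate 2.

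Of the spindle checkpoint genes, Bub1 had signals of 1638, 2253 and 1943 with luteolin + LPS, 1549, 2048 and 2347 with LPS, 1621, 1848 and 1629.9 with luteolin and 3238, 1230.1 and 1318 in control cells. Bub1b had 690.2, 983 and 769 with luteolin + LPS, 690.2, 923 and 816 with LPS, 809, 1372 and 1039.6 with luteolin and 1655, 969.9 and 953 in control cells, with all LPS arrays below all control arrays. Birc5 (survivin), a passenger protein, had 1326, 2232 and 1769 with luteolin + LPS, 936, 1455 and 2097 with LPS, 1761, 2239 and 2295 with luteolin and 2198, 1275 and 1659.9 in control cells. Its partner Cdca8 (borealin) had 1103, 1808 and 1598 with luteolin + LPS, 908, 1483 and 1976 with LPS, 1420.5, 1818 and 1797 with luteolin and 2333, 1366 and 1479.9 in control cells. LPS replicate 1 was the lowest array for both passenger genes. Bub1b was lowest in the replicate 1 arrays of luteolin + LPS and LPS, at the same printed signal, and Bub1 in control replicate 2.

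Cenpa had signals of 923, 1191 and 1239 with luteolin + LPS, 564, 928 and 981 with LPS, 1658, 2349.9 and 1787 with luteolin and 2253, 1401 and 1629.6 in control cells. The LPS arrays of Cenpa lay below all control arrays, and the luteolin + LPS arrays below all luteolin arrays. The spindle motor gene Kif11 had 593, 878 and 742 with luteolin + LPS, 208, 659 and 763 with LPS, 876, 1179 and 1010.4 with luteolin and 1677, 614 and 785 in control cells, where LPS replicate 1 stood far below the other 11 arrays. Kif23, of a motor protein of cytokinesis, had 598.4, 776.7 and 665.5 with luteolin + LPS, 313.0, 489.8 and 471.7 with LPS, 833.3, 885.5 and 810.0 with luteolin and 1524.2, 435.1 and 572.9 in control cells. Its luteolin + LPS arrays lay above all LPS arrays and below all luteolin arrays. Kif20a, of another cytokinesis motor, had 329, 739 and 536 with luteolin + LPS, 246, 481 and 529 with LPS, 551, 905 and 749 with luteolin and 956, 532 and 691 in control cells, with LPS arrays below all control arrays. Cenpe, of the motor protein at the kinetochore, ran from 282 in LPS replicate 1 to 1072 in control replicate 1. Cdc20, the activator of the anaphase-promoting complex, had 1847, 2369 and 2173 with luteolin + LPS, 1569, 2047 and 2306 with LPS, 2743, 3525 and 3146 with luteolin and 4845, 2519 and 3125 in control cells, and both conditions with LPS lay below both conditions without it. Ube2c, the ubiquitin-conjugating enzyme of that complex, had 4142, 4002 and 3351 with luteolin + LPS, 2081, 3142 and 3048 with LPS, 4653, 5233 and 3722 with luteolin and 5354, 3099 and 3351 in control cells. Mki67, the widely used proliferation marker, had 1453, 1293 and 2061 with luteolin + LPS, 1219, 2010.1 and 2178 with LPS, 1957, 2733 and 2545 with luteolin and 4708, 1518 and 2247 in control cells, and its control replicate 1 was the highest of the 12 arrays. Top2a, the topoisomerase that untangles sister chromatids, had 2279, 2566 and 2594 with luteolin + LPS, 1952, 2777 and 3308 with LPS, 2097, 2875 and 2626 with luteolin and 4902, 1509 and 2125 in control cells, again with control replicate 1 highest.

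**Figure D1:**
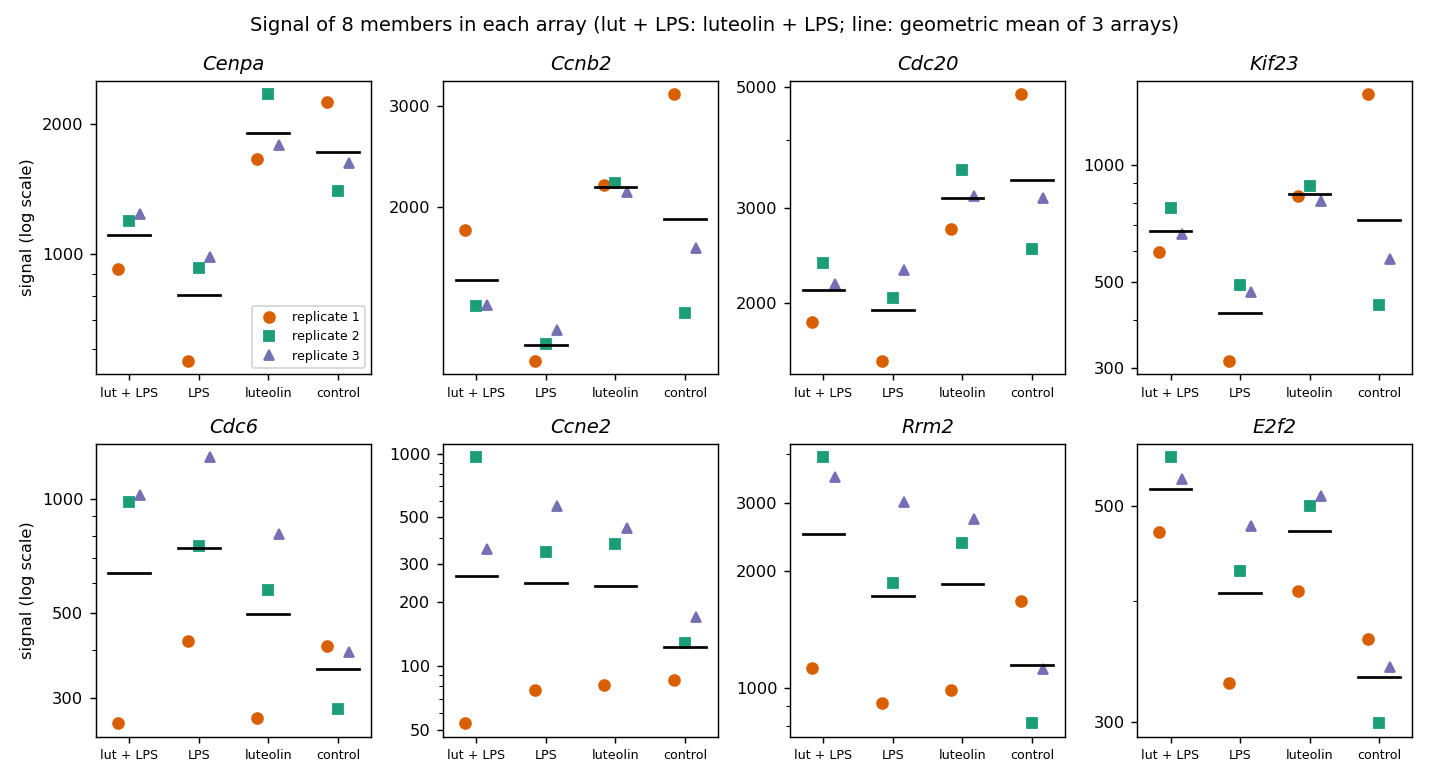
Signal (linear array intensity on a log axis) of 8 members in the 4 conditions, with circles for replicate 1, squares for replicate 2 and triangles for replicate 3 and a line at the geometric mean of the 3 arrays. The LPS arrays of Cenpa (564 to 981) lie under its control arrays (1401 to 2253), whereas replicate 1 of Ccne2 is the lowest array in each condition.

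Control replicate 1 was above both other control arrays for 43 of the 46 members, against 43.1% of all genes tested. The 43 were all 19 mitosis members and 24 of 27 replication members, and the exceptions were the G1 cyclins Ccnd1, Ccne1 and Ccne2. Its median distance from the mean of controls 2 and 3 was 0.86 over the members (range -0.96 to 1.77), against 0.01 over all genes. It was the highest of the 12 arrays for 23 members, 16 of them mitosis genes, against 17.5% of all genes. Luteolin + LPS replicate 2 was the highest array for 15 members, all of replication, against 12.9% of all genes. The lowest array was control replicate 2 for 20 members, 16 of them replication genes, and LPS replicate 1 for 16 members, 14 of them mitosis genes. For the lowest array the share of all genes was not counted, so these counts cannot be called particular to the members. LPS replicate 1 was also the highest array for 13.9% of all genes. The remaining control arrays also differed, with control 3 above control 2 for 44 of 46 members (median 0.32). Other replication genes and other mitosis genes, from lists that do not include the members, were above both other controls in control replicate 1 for 48 of 63 and 56 of 59 genes. What set this array apart was not tested.

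**Figure D2:**
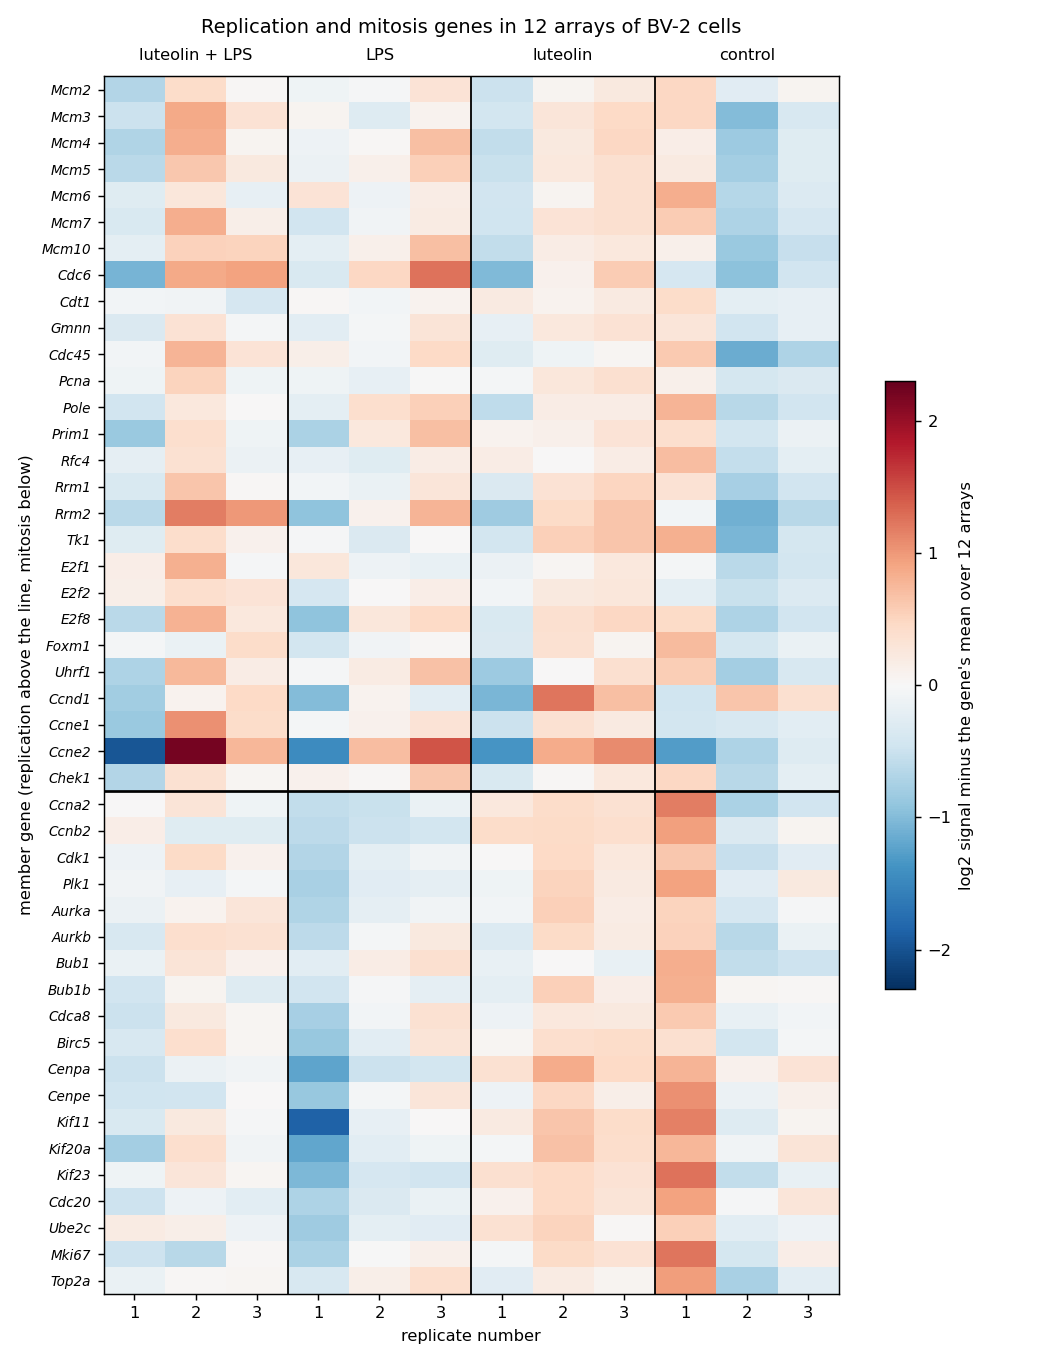
Log2 signal of the 46 tested members (rows, replication above the line and mitosis below it) on the 12 arrays (columns, replicates 1 to 3 of luteolin + LPS, LPS, luteolin and control), as the difference from each gene's mean over all arrays. Control replicate 1 is the highest array for 23 members, against 17.5% of all genes. LPS replicate 1 is the lowest for 14 of the 19 mitosis members, where the share of all genes was not counted.

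The split into 27 replication members (origins, synthesis, nucleotides, transcription, G1 cyclins and the checkpoint kinase gene Chek1) and 19 mitosis members was made after values were seen, and is described without a test. Foxm1 is counted with the replication members as a transcription factor, although it activates mitotic genes. As a median over replication members, the arrays lay -0.22, 0.90 and 0.34 from the control mean with luteolin + LPS, 0.10, 0.25 and 0.58 with LPS, -0.22, 0.49 and 0.55 with luteolin, and 0.54, -0.47 and -0.08 in controls. For mitosis members these medians were -0.33, 0.06 and -0.19 with luteolin + LPS, -0.88, -0.33 and -0.21 with LPS, -0.10, 0.29 and 0.08 with luteolin, and 0.63, -0.49 and -0.18 in controls. On each of the LPS arrays and each of the luteolin + LPS arrays the replication median was above the mitosis median. The same held on replicates 2 and 3 of luteolin and of control, so this order was not particular to the conditions with LPS. In RNA from a whole culture, fewer cells in a phase of the cycle and less RNA per cell cannot be told apart.

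LPS against control asked what endotoxin alone does to resting cells. With the split made after values were seen, the median difference was -0.52 for mitosis genes, 17 of 19 below 0. It was 0.28 for replication genes, 23 of 27 above 0. The mitosis value rested on replicate 1, as the mitosis medians within replicates 1, 2 and 3 were -1.55, 0.12 and -0.04. The median over all 12071 genes was -0.04. By role, the median was lowest for the centromere and motor genes (-0.83, 0 of 5 above 0) and the activators of the anaphase-promoting complex (-0.64, 0 of 2). The mitotic cyclins with Cdk1 were at -0.41 (0 of 3), the mitotic kinases and passenger proteins at -0.28 (1 of 7). Origin licensing genes were at 0.25 (10 of 11 above 0), nucleotide supply at 0.32 (3 of 3) and the G1 cyclins at 0.47 (2 of 3).

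Cenpa was the only member that passed the test with LPS. It fell by 1.11 on the log2 scale, or 2.16-fold (SE 0.25, adjusted p = 0.0319, limma over all genes, n = 3 arrays each), and its difference within the numbered replicates was -2.0, -0.59 and -0.73. This was 1 of 46 members lower and 0 higher, against 2.22% of all genes called lower and 1.96% higher. At an unadjusted p under 0.05, 5 members were lower, namely Cenpa, Cdc20, Ccnb2, Plk1 and Kif20a, and 0 higher, against 12.5% and 8.0% of all genes. The next largest decreases by value, none of which passed, were Kif11 at -0.98 (SE 0.47, adjusted p = 0.268), Kif20a at -0.83 (SE 0.36, adjusted p = 0.227), Kif23 at -0.80 (SE 0.37, adjusted p = 0.256) and Cdc20 at -0.79 (SE 0.23, adjusted p = 0.0846). Within replicates Kif11 was at -3.01, 0.10 and -0.04 and Kif23 at -2.28, 0.17 and -0.28, so their mean differences rested on replicate 1. Cdc20 was at -1.63, -0.30 and -0.44, lower in each replicate. On the replication side the largest values were Cdc6 at 1.06 (SE 0.58, adjusted p = 0.335), Ccne2 at 1.0 (SE 1.04, adjusted p = 0.623), Mcm10 at 0.62 (SE 0.33, adjusted p = 0.322), Cdc45 at 0.60 (SE 0.38, adjusted p = 0.394) and Rrm2 at 0.59 (SE 0.57, adjusted p = 0.602), none of them past the threshold. Cdc6 was above control in each replicate, at 0.05, 1.42 and 1.70, whereas Cdc45 and Rrm2 were below it in replicate 1 and above it in the other 2.

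Within replicates, LPS lay below control for 43 of 46 members in replicate 1 (median -1.02), and above it for 40 in replicate 2 (0.44) and 34 in replicate 3 (0.40), where 42.8, 47.2 and 48.2% of all genes were above control. Mitosis members were at medians of -1.55, 0.12 and -0.04 in replicates 1, 2 and 3. Replication members were at -0.46, 0.65 and 0.57. The mitosis median minus the replication median was -1.09, -0.53 and -0.62 in replicates 1, 2 and 3. The same difference was also below 0 in each replicate for luteolin + LPS against luteolin (-0.21, -0.74 and -0.07) and for luteolin against control (-0.12, -0.01 and -0.39), but not for luteolin + LPS against LPS (0.70, -0.22 and 0.28). Members below control in all 3 replicates were Ccnd1, Ccnb2, Bub1b, Cenpa, Kif20a and Cdc20 (6 of 46, against 32.1% of all genes), and those above it in all 3 were Cdc6, E2f1 and Ccne1 (3 of 46, against 22.8%). Arrays did not overlap for 5 members lower with LPS, Ccnb2, Bub1b (a spindle checkpoint kinase), Cenpa, Kif20a and Cdc20, against 16.1% of all genes, and for 2 higher, Cdc6 and Ccne1, against 11.5%. In each of these 4 counts the share of members was smaller than the share of all genes.

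Without control replicate 1, the mitosis median against control was -0.20, with 14 of 19 below 0, and the replication median 0.61, with 26 of 27 above 0. Cenpa was then at -0.92 and missed the threshold (adjusted p = 0.105). Over its 21 alternatives its adjusted p was 0.00669 to 0.105. With replicates 2 and 3 alone and the replicate number as a block, the mitosis median was 0.06, with 11 of 19 above 0, and Cenpa was at -0.66 (adjusted p = 0.0689).

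**Figure D3:**
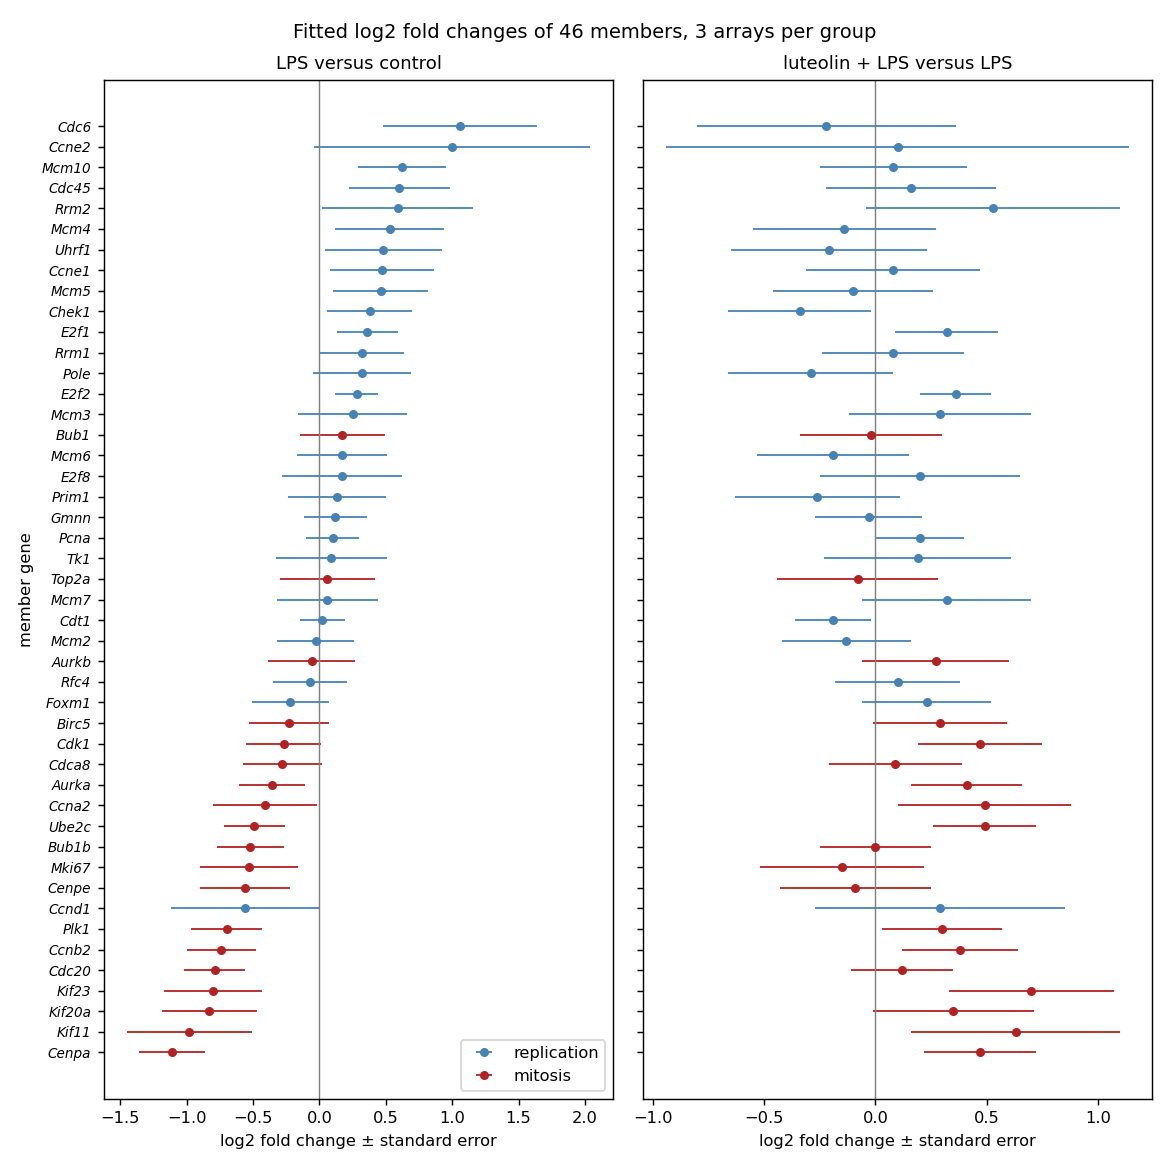
Fitted log2 difference with its standard error for each of the 46 members, for luteolin + LPS against LPS and for LPS against control (n = 3 arrays each), with members ordered by the LPS values. The LPS values run from 1.06 for Cdc6 to -1.11 for Cenpa, and the standard error of Ccne2 (1.04) is as wide as its value.

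Luteolin + LPS against LPS asked what luteolin does to activated cells. The mitosis members were mostly higher with luteolin + LPS, at a median of 0.30, with 15 of 19 above 0, and the replication members at 0.08, with 16 of 27 above 0. Over all genes the median was 0.02. No member passed the test: limma called 0 of 46, against 0.149% of all genes higher and 0.356% lower. At an unadjusted p under 0.05 there was 1 member higher, E2f2, and 0 lower, against 6.89% and 7.98% of all genes. The largest differences were Kif23 at 0.70 (SE 0.37, adjusted p = 0.418), Kif11 at 0.63 (SE 0.47, adjusted p = 0.596) and Rrm2 at 0.53 (SE 0.57, adjusted p = 0.735). Kif23 was higher within each replicate, at 0.94, 0.67 and 0.50. Kif11 was at 1.51, 0.41 and -0.04, with the first of these set against the low LPS replicate 1. Arrays did not overlap for 5 members higher with luteolin + LPS, namely the mitotic genes Ccna2, Ccnb2, Plk1, Kif23 and Ube2c, and for 0 members lower, against 8.04% of all genes in either direction. Over all members 24, 39 and 18 of 46 were above LPS in replicates 1, 2 and 3, against 54.9, 49.8 and 48.4% of all genes. Of the mitosis members alone, 18, 16 and 10 of 19 were above LPS in replicates 1, 2 and 3, at medians of 0.50, 0.30 and 0.02, and 10 of 19 were above it in all 3, against 21.2% of all genes. The replication members were at -0.20, 0.53 and -0.26.

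Luteolin + LPS against luteolin asked what LPS does in cells that also receive luteolin. Its differences do not use the control arrays. Its standard errors and p-values do, because the fit shares 1 estimate of the spread over all 4 conditions. The mitosis members were lower with luteolin + LPS, at a median of -0.31, with 17 of 19 below 0, and the replication members lay at 0.02, with 15 of 27 above 0. All genes had a median of 0.00. Limma called 0 of 46 members, against 1.0% of all genes lower and 0.804% higher. At an unadjusted p under 0.05, Cenpa and Cdc20 were lower and 0 members higher, against 6.76% and 4.74% of all genes. Cenpa differed by -0.78 (SE 0.25, adjusted p = 0.178), with -0.85, -0.98 and -0.53 within replicates. Cdc20 differed by -0.56 (SE 0.23, adjusted p = 0.366), with -0.57, -0.57 and -0.53. Mki67 was at -0.60 (SE 0.37, adjusted p = 0.631), Ccnb2 at -0.54 (SE 0.26, adjusted p = 0.473) and Kif20a at -0.51 (SE 0.36, adjusted p = 0.701), and each of these was lower in every replicate. Over all members 15, 24 and 10 of 46 were above luteolin in replicates 1, 2 and 3, against 44.1, 51.4 and 47.7% of all genes. Of the 19 mitosis members 14 were below luteolin in all 3 replicates, against 21.5% of all genes, and their medians were -0.26, -0.39 and -0.28. Replication members were at -0.05, 0.35 and -0.22. Arrays did not overlap for 5 members lower with luteolin + LPS, namely Cdt1, Ccnb2, Cenpa, Kif23 and Cdc20, against 10.2% of all genes, and for 0 members higher, against 7.36%.

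Luteolin against control asked what the flavonoid does to resting cells. The replication members were at a median of 0.31, with 25 of 27 above 0, and the mitosis members at 0.12, with 12 of 19 above 0, while all genes had a median of -0.01. Limma called 0 of 46 members and 0% of all genes in either direction. At an unadjusted p under 0.05 there was 1 member higher, E2f2, and 0 lower, against 3.18% and 5.91% of all genes. The largest differences were Ccne2 at 0.95 (SE 1.04, adjusted p = 0.87) and Rrm2 at 0.69 (SE 0.57, adjusted p = 0.809). E2f2, chosen after its values were seen, was at 0.50 (SE 0.16, adjusted p = 0.383), with 0.16, 0.74 and 0.58 within replicates. It was the only member above control in all 3 replicates, against 20.3% of all genes, and the only member whose luteolin arrays did not overlap the control arrays, against 8.29% of all genes higher. For 0 members did the luteolin arrays lie wholly below, against 11.3%.

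The replicates of luteolin against control pointed in opposite directions. In replicate 1, 45 of 46 members were below control (median -0.77), in replicate 2 all 46 were above it (0.79), and in replicate 3 45 were above it (0.46), where 47.5, 45.6 and 46.9% of all genes were above control. Tk1 shows the pattern, at 759 with luteolin against 1806 in control in replicate 1 and at 1483 with luteolin against 495 in control in replicate 2. Without control replicate 1 the median was 0.49, with 45 of 46 above 0, 13 members higher at an unadjusted p under 0.05 (3.28% of all genes) and 0 called. Leaving out control replicate 2 instead gave a median of -0.02. With weights for the quality of each array, estimated by limma, 10 members were called higher, against 2.78% of all genes, among them Pcna, Rrm1, Rrm2, Tk1, E2f1 and E2f2. The arrays given the lowest weights were the replicate 1 arrays of all 4 conditions (0.211 to 0.549) and luteolin + LPS replicate 2 (0.458).

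**Figure D4:**
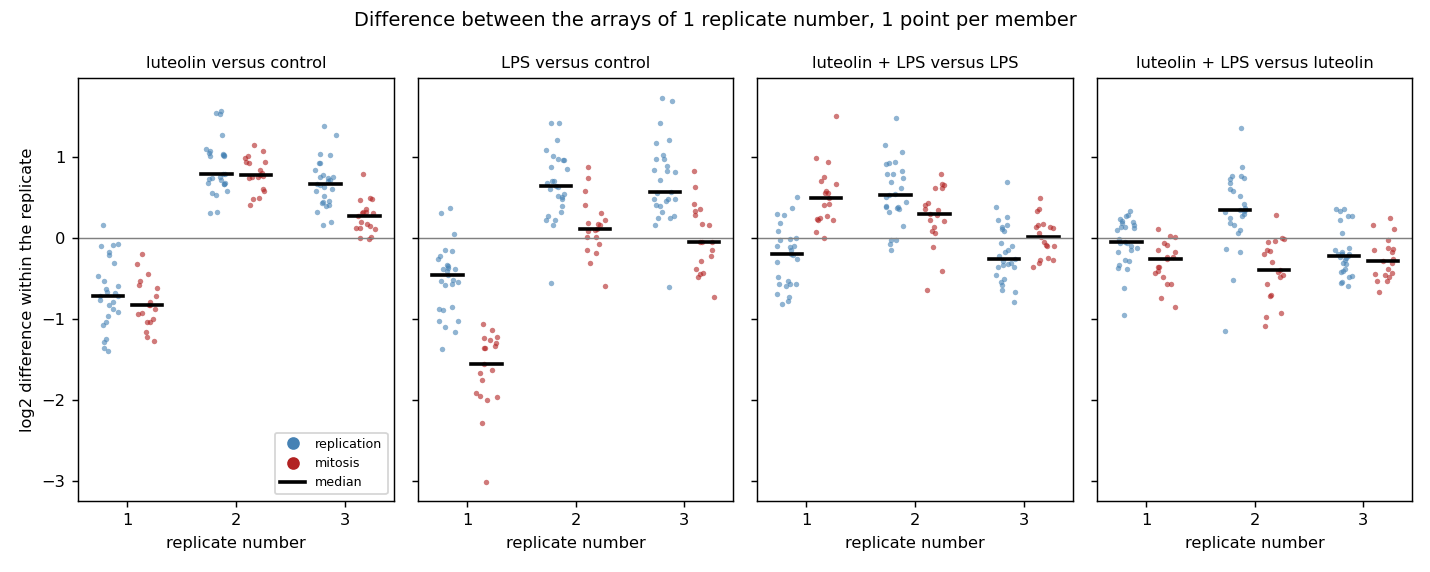
Log2 difference of each tested member between the 2 arrays of the same replicate number, with replication members in blue, mitosis members in red and a black bar at the median, for the 4 pairs of conditions. In luteolin against control 45 of 46 members lie below 0 in replicate 1 and all 46 above it in replicate 2, while in luteolin + LPS against luteolin the mitosis medians are -0.26, -0.39 and -0.28.

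The comparisons share arrays: LPS against control and luteolin against control use the same controls, and each other pair of comparisons named here that has a condition in common shares its arrays. Their values stand side by side and no relation between them is drawn. For Cenpa the differences were 0.47 for luteolin + LPS against LPS, -0.78 for luteolin + LPS against luteolin, -1.11 for LPS against control and 0.15 for luteolin against control. For Kif23 they were 0.70, -0.32, -0.80 and 0.22 in that order, for Cdc20 0.12, -0.56, -0.79 and -0.11, and for Rrm2 0.53, 0.43, 0.59 and 0.69.

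Averaged over cells with and without LPS, the effect of luteolin on the members had a median of 0.21, with 34 of 46 above 0, against 0.01 over all genes. Limma called 0 members, against 1.16% of all genes higher and 1.92% lower, and 3 members, E2f2, E2f1 and Ube2c, were higher at an unadjusted p under 0.05, against 7.99% of all genes. The largest values were Rrm2 at 0.61 (SE 0.41, adjusted p = 0.462) and Ccne2 at 0.53 (SE 0.74, adjusted p = 0.763). E2f2 was at 0.43 (SE 0.11, adjusted p = 0.0661), and with the replicate number as a block its adjusted p was 0.0273, which called it higher (1 member, against 3.89% of all genes). Over its 20 alternatives its adjusted p was 0.00787 to 0.162. Without control replicate 1, Ccna2 (adjusted p = 0.0214) and Kif23 (adjusted p = 0.0358) were called higher, 2 members against 0.878% of all genes. The test of whether the luteolin effect differed with LPS called 0 members and 0% of all genes, with 0 members at an unadjusted p under 0.05, against 1.56% of all genes above 0 and 1.59% below. Its largest values were Ccne2 at -0.86, Cdc6 at -0.70, Kif11 at 0.51 and Mcm4 at -0.50, each with an adjusted p of 0.999 and standard errors of 1.47, 0.82, 0.67 and 0.58.

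Of the members, 34 had more than 1 probe set. Where 32 members had at least 2 probe sets reaching 50, the probe sets of a gene had the same sign for 28 members in LPS against control, 25 in luteolin + LPS against luteolin, 23 in luteolin + LPS against LPS and 25 in luteolin against control. The other Cenpa probe set that reached 50, with mean signals of 52.7 with luteolin + LPS, 51.2 with LPS, 73.2 with luteolin and 80.4 in control cells, differed by -0.65 for LPS against control, and the remaining probe sets of Kif11 by -0.63 and -0.68.

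Beyond the members, 164 further cell cycle genes were listed in 12 groups by role, and 159 were tested. Limma called 0 of them in any of the 6 contrasts, with 5 higher and 8 lower of 159 at an unadjusted p under 0.05 in LPS against control, where 8.0% and 12.5% of all genes were, a larger share in both directions. With LPS against control the 59 other mitosis genes had a median of -0.18, 45 of them below 0, and the 63 other replication genes 0.07, 40 of them above 0. Spindle motors and cytokinesis genes were lowest, at -0.42 with 15 of 17 below 0. Mitotic entry genes were at -0.18 (7 of 9 below 0). Genes of the anaphase-promoting complex and its regulators, a list not counted among the 59, were at -0.21 (7 of 8 below 0). Origin licensing genes were at 0.16 (14 of 17 above 0), and the genes of replication-coupled repair and chromatin assembly at 0.24 (13 of 15 above 0). Within replicates 1, 2 and 3 the other mitosis genes were at medians of -1.11, 0.32 and 0.24. The other replication genes were at -0.59, 0.37 and 0.38. The mitosis median minus the replication median of these other genes was -0.52, -0.05 and -0.14 in replicates 1, 2 and 3. In luteolin + LPS against luteolin the other mitosis genes had a median of -0.15, with 48 of 59 below 0, and 30 of 59 were below luteolin in every replicate.

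With the replicate number as a block, 2 of these 159 further genes were called higher and 3 lower in LPS against control. These are smaller shares than those of all genes, 4.30% higher and 6.78% lower, and the genes are given as values, named after these were seen. Ccnd2, of cyclin D2, had signals of 857, 2194 and 2449 with luteolin + LPS, 465, 1763 and 1586 with LPS, 712, 3206 and 2679.7 with luteolin and 806, 2785 and 2560.3 in control cells. Replicate 1 was the lowest array in each condition, and LPS was below control in each replicate, by -0.79, -0.66 and -0.69. Its adjusted p was 0.615 without the block and 0.0131 with it (0.0131 to 0.958 over its alternatives). Chaf1b, of the chromatin assembly factor that loads histones on new DNA, had 896, 1322 and 1215 with luteolin + LPS, 1170.2, 1241 and 1493 with LPS, 768, 956 and 992 with luteolin and 1006, 713 and 734 in control cells. All LPS arrays of Chaf1b lay above all control arrays (adjusted p = 0.0717, and 0.0488 with the block). Pttg1, of securin, which keeps sister chromatids from separating before anaphase, had 7845, 4939 and 5861 with luteolin + LPS, 6058, 5879 and 6771 with LPS, 5249, 4374 and 4353 with luteolin and 4898, 3870.5 and 4148 in control cells. Pttg1 was thus higher with LPS in each replicate (adjusted p = 0.105, and 0.0299 with the block), unlike most of the mitosis members. Rbl2, a repressor subunit within the DREAM complex, and Cdkn1b, an inhibitor of cyclin-dependent kinases, were lower with LPS, at -0.60 and -0.41 (adjusted p = 0.0215 and 0.0483 with the block). In luteolin + LPS against luteolin the block called 1 of the 159 genes higher, against 1.74% of all genes, namely Cdkn2b, another such inhibitor, at 0.99, with 331, 187 and 229.6 in luteolin + LPS and 146, 109 and 115 in luteolin (adjusted p = 0.0597, and 0.0267 with the block).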

How the data were processed

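BV-2 cells were profiled on Affymetrix mouse arrays, 3 per condition. The deposited intensities are 1 linear value per probe set; per the labels and methods the authors made them with RMA (background correction, quantile normalization and summary of probes), whose choices set how low signals compare. Log2 was taken here. Probe sets were named from the platform annotation (34958 with 1 gene, 932 with several, 9211 with none, 1 symbol updated). The probe set with the highest mean stood for its gene, and genes with a mean signal of 50 in at least 1 condition were tested. Models over all 4 conditions were fitted with limma 3.58.1 in R 4.3.3, with p-values adjusted by Benjamini-Hochberg over 12071 genes and a threshold of 0.05. The script was tested on simulated data. Figures were drawn with matplotlib 3.10.9 in Python 3.11.15. The study's own test, SAM on single probes, was not used here because probe-level values were not analysed.

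The members and gene lists were chosen with earlier results of these data known. Members given with a difference, standard error and adjusted p are, per contrast, those called and otherwise up to 5 in each direction with the largest differences of at least 0.5; any others were chosen after their values were seen. Arrays of the same replicate number tended to deviate together over all genes tested. Deviations from the condition means correlated at 0.101 to 0.591 in the 18 same-numbered pairs (median 0.421). In 36 other pairs they correlated at -0.563 to 0.483 (median -0.295). Deviations cancel within a condition, so these medians are not independent of each other. For the members, replicate 1 was high in control and low with luteolin, as given above. The labels do not say that the numbers mark experiments. Alternatives were the replicate number as a block, array weights, another probe set rule, no signal filter, a stricter one, a shift of arrays to a common median, only the groups compared and leaving out each array. The extraction label names another cell type in 1 place, while all other labels name BV-2.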

Additional observations from a re-analysis of the deposited data

How the results depend on the processing

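Counts of called members depended on the treatment of replicates, and each is given with the share of all genes called in the same fit and direction. LPS against control (1 member, Cenpa) gave 8 with array weights, 6 higher (7.35% of all genes) and 2 lower (8.81%), 0 with the mean of all probe sets, 0 with only the groups compared, and 0 to 1 when leaving out each array. It was 0 without LPS replicate 1, LPS replicate 3, control replicate 1, control replicate 3 or luteolin replicate 3. Luteolin against control (0 members) gave 10 with array weights, all higher (2.78%). Luteolin + LPS against luteolin (0 members) gave 1 lower with array weights (2.64%), and its median (-0.08) ran from -0.29 to 0.03 when leaving out each array. The average luteolin effect (0 members) gave 6 with array weights, all higher (5.24%), 1 higher with the mean of all probe sets (1.16%), and 0 to 2 when leaving out each array, with 2 higher without control replicate 1 (0.878%).

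With the replicate number as a block, the average luteolin effect gave 1 member higher, E2f2 (3.89%), and the block changed no other call among the members. Among further cell cycle genes it added those named above, Ccnd2 in luteolin + LPS against LPS (1 higher of 159, 1.95% of all genes), and Orc2, Pole4, Dtymk and Anapc1 in the average luteolin effect (2 higher and 2 lower of 159, 3.89% and 6.22% of all genes). Of the alternatives chosen after seeing the data, both with the block, leaving out control replicate 1 gave 1 member higher for luteolin + LPS against LPS (1.95%), 2 lower for luteolin + LPS against luteolin (3.16%), 10 for LPS against control, 9 higher (2.41%) and 1 lower (2.58%), and 12 for the average effect, all higher (3.70%). Using only replicates 2 and 3 gave 1 lower for luteolin + LPS against luteolin (2.75%), 5 for LPS against control, all higher (2.58%), and 9 for the average effect, all higher (4.33%).

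The sign turned for Kif11 in LPS against control (0.03 with replicates 2 and 3 and the block) and in the test of the difference in luteolin effect, where it was 0.51. In that test it was -0.32 with array weights, -0.47 with replicates 2 and 3 and the block, -0.20 without control replicate 1 and with the block, and -0.08 to 0.85 when leaving out each array. Ccne2 in that test (-0.86) ran from -1.79 to 0.29. The cause was not tested. Of 540 alternative values for the 26 member results named by the rule of called or largest differences, 507 kept direction and side of the threshold. So did 122 of 124 alternative medians. E2f2, and Ccna2 and Kif23 in the average luteolin effect, are not among the 26. Of 124 alternative counts of called members, 103 stayed the same. With 3 arrays per condition, standard errors of 0.11 to 1.47 limit what can be called.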
